A study of Mus musculus with 6 samples.

Results

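The mRNA levels of 8 genes were followed in mouse liver: the cytochrome P450 enzymes Cyp3a11, Cyp3a13, Cyp3a25, Cyp1a1 and Cyp1a2, their electron donors Por and Cyb5a, and the receptor gene Ahr. They were chosen by symbol, with earlier results of these data known. Each had a row in all 6 count tables, which list 24982 genes. The libraries were made from liver polyA RNA of male C57BL/6NJ mice, 3 fed chow and 3 given a high fat diet together with sugar water (high fat high sugar, HFHS). The 2 groups had the same strain and sex, no transgene or drug is named, and the series gives 54 weeks as the length of treatment. The labels give neither the age of the mice nor whether a separate mouse stood behind each library, so p-values here speak of the spread among these libraries. The study's title places the diet in a model of fatty liver disease that progresses to liver cancer, and the labels do not say whether a library holds tumour tissue.

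Each library held between 16565335 and 20585366 read counts in genes. Levels are given as CPM, read counts scaled to a common library total, with TMM factors, which correct for differences in library composition, with the mean ± SD of 3 libraries. High fat high sugar replicate 2 stood apart: across genes it correlated with replicates 1 and 3 at r = 0.961 and 0.957, against 0.982 between those replicates. The diets were compared gene by gene with edgeR's quasi-likelihood test, and a gene was called changed at a Benjamini-Hochberg adjusted p under 0.05 over the 12949 tested genes. By this rule 1428 genes (11.0%) were higher and 468 (3.61%) lower in the HFHS group. With scaling by library size alone the calls were 1928 higher and 200 lower, which takes the higher share of calls from 75.3% to 90.6% and moves the median log2 fold change of all tested genes by 0.27. Without chow replicate 3, edgeR called 4 genes higher and 2 lower in all, while 2139 were higher and 1064 lower at an unadjusted p under 0.05, against 2524 and 1660 with all libraries.

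Cytochrome P450 enzymes are haem proteins of the endoplasmic reticulum that oxidise drugs, steroids, bile acids and other small molecules. Por encodes NADPH-cytochrome P450 reductase, which passes electrons to all microsomal P450s, and Cyb5a encodes cytochrome b5, which can supply an electron to several of them. The nuclear receptors PXR and CAR drive Cyp3a genes in hepatocytes, and the aryl hydrocarbon receptor AhR, encoded by Ahr, drives Cyp1a genes with its partner ARNT. In mouse liver Cyp1a2 is expressed without an inducer, mainly in hepatocytes around the central vein, whereas Cyp1a1 is low until AhR is activated.

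The promoters of the 4 enzyme genes that carry the comparisons below are shown because they differ in the receptor motifs they hold. Each run is the 250 bases before the start site listed by RefSeq, on the gene's strand, 5′ to 3′, in GRCm38.p6, the assembly of mm10. Capitals mark matches on either strand to the hexamer AGGTCA and its variant TGAACT, which nuclear receptors bind, and to GCGTG, the core of the AhR-ARNT element.
Cyp3a11 (chr5:145879855-145880104, minus strand): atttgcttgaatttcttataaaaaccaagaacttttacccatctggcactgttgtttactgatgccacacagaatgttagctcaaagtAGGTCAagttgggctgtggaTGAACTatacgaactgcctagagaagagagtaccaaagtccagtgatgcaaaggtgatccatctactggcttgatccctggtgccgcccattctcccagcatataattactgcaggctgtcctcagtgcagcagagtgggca
Cyp3a25 (chr5:146009619-146009868, minus strand): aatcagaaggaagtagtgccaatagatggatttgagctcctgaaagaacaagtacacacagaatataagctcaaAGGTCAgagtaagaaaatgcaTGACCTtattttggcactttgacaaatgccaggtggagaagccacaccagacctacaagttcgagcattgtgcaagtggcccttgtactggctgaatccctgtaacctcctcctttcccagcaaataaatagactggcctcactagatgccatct
Cyp1a2 (chr9:57683656-57683905, minus strand): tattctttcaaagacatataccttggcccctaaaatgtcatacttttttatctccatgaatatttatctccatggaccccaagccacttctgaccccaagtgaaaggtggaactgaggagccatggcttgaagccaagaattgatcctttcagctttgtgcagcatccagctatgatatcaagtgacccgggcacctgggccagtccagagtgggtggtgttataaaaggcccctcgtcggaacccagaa
Cyp1a1 (chr9:57697363-57697612, plus strand): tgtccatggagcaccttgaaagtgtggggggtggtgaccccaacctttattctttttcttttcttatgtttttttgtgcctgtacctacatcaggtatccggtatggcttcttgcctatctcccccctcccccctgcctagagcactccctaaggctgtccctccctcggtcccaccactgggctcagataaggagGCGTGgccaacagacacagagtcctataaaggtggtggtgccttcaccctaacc

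The Cyp3a11 window held 1 AGGTCA, whose first base lies at -162 from the start site, and 1 TGAACT at -142. The Cyp3a25 window held AGGTCA at -176 and its reverse complement at -155. The Cyp1a1 window held 1 GCGTG, at -54, and the Cyp1a2 window held none of the 3 motifs. AGGTCA occurred in 14.0%, TGAACT in 11.8% and GCGTG in 28.2% of the 32851 RefSeq windows of the same length, and binding was not measured, so a match describes the sequence only. The window of Cyp3a13 held none of the motifs, and that of Por held GCGTG at 3 places. The Cyp3a25 window was identical at 238 of 251 aligned positions (94.8%) to that of its neighbour Cyp3a59, and at 52.7% to that of Cyp3a11.

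Of the 8 genes, 2 fell on the HFHS diet, Cyp3a11 and Cyp3a25, and none rose. These 2 calls stand against 3.61% of all tested genes called lower and 11.0% called higher. As the 8 genes were chosen with earlier results of these data known, these shares are given as a description. All 8 genes passed the filter on low counts. At an unadjusted p under 0.05, 4 of the 8 were lower and 0 higher, against 1660 lower and 2524 higher of all 12949 tested genes. In 4 of the 8 (Cyp3a11, Cyp3a25, Cyp1a2 and Ahr) every HFHS library lay below every chow library, a pattern seen in 18.0% of all tested genes. The median log2 fold change of the 8 genes was -0.55, and that of all tested genes was -0.02. That of 9 hepatocyte markers was -0.56, so a median fall of this size was not particular to the 8 genes. Of these markers, Cps1 is also among the periportal genes below, and Hnf4a among those for PXR and CAR. In bulk liver RNA, fewer hepatocytes and less RNA per hepatocyte cannot be told apart.

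**Figure D1:**
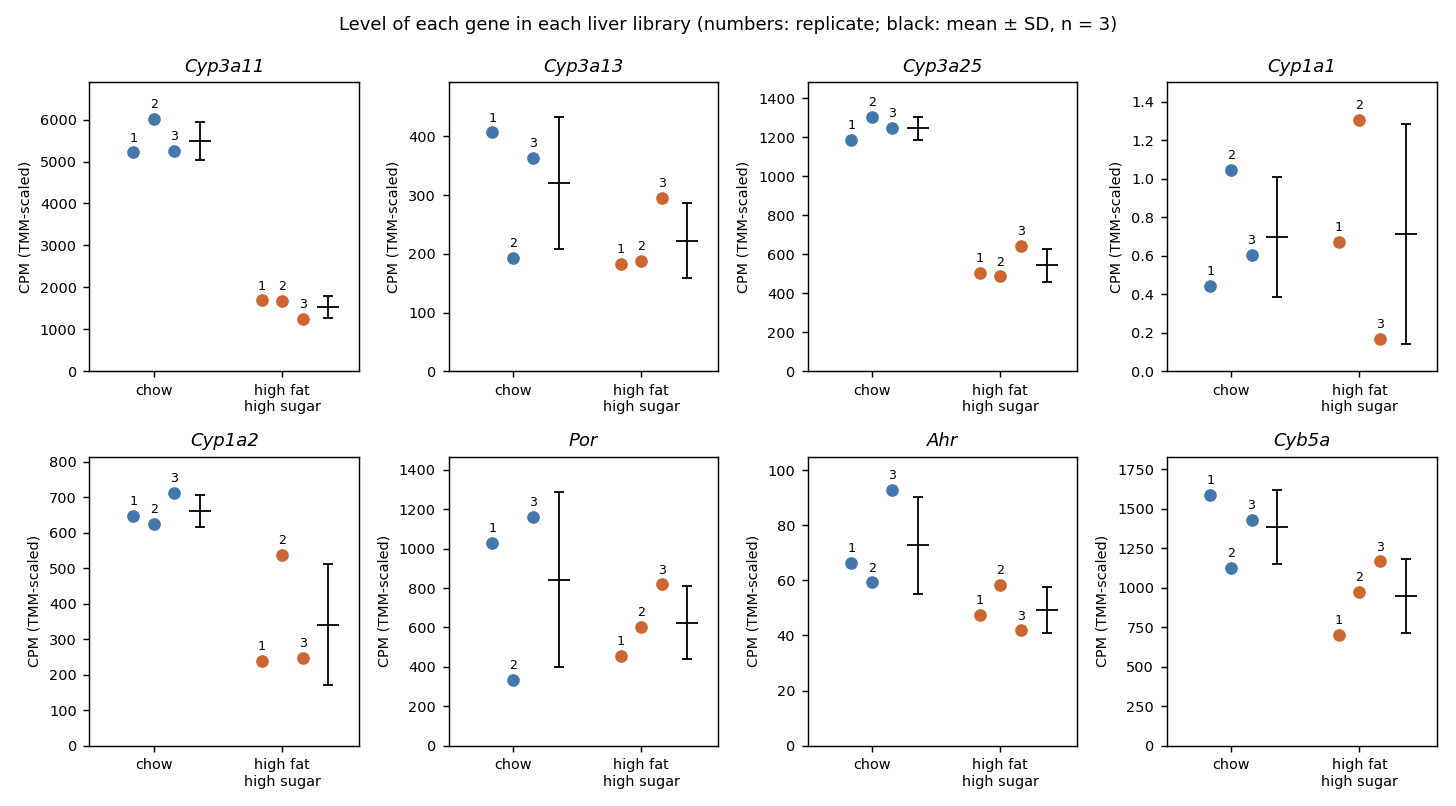
TMM-scaled CPM of each of the 8 genes in each library, on linear axes that start at 0 and differ in range between panels; points are libraries numbered by replicate, and the black line and bars are the mean ± SD of 3. The groups are separate for Cyp3a11, Cyp3a25, Cyp1a2 and Ahr and overlap for the other genes.

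Cyp3a11, the main drug- and steroid-oxidising Cyp3a enzyme of adult male mouse liver and the counterpart of human CYP3A4, showed the largest fall among the 8 genes. Its gene lies on chromosome 5 from 145854607 to 145879854 on the minus strand. Its level was 5218, 6021 and 5255 CPM in chow replicates 1, 2 and 3, and 1693, 1687 and 1242 CPM in HFHS replicates 1, 2 and 3. The groups were well apart, every HFHS library lying far below the lowest chow library. The mean went from 5498 ± 453 to 1541 ± 258 CPM (n = 3 each), 28.0% of chow, and the log2 fold change was -1.83 ± 0.23 (SE, adjusted p = 0.00867, edgeR quasi-likelihood test with Benjamini-Hochberg adjustment). Only 0.71% of tested genes had a log2 fold change at or below that of Cyp3a11.

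Cyp3a25, another hepatic Cyp3a enzyme, lies on the same chromosome at 145977192 to 146009644, minus strand. It stood at 1186, 1305 and 1247 CPM in chow and at 506, 487 and 642 CPM in the HFHS libraries. The chow libraries lay close together and every HFHS library was below all of them. The mean fell from 1246 ± 59.4 to 545 ± 84.5 CPM, a log2 fold change of -1.19 ± 0.18 (adjusted p = 0.0119, edgeR with Benjamini-Hochberg adjustment). Without chow replicate 3 the adjusted p was 0.0575 for Cyp3a11 and 0.064 for Cyp3a25 by edgeR, while the log2 fold changes were -1.88 and -1.20.

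Cyp3a13, a Cyp3a enzyme whose gene lies apart from the cluster on chromosome 5 (137892933 to 137925610, minus strand), was not called. Chow replicates 1, 2 and 3 gave 406, 194 and 363 CPM, and the HFHS replicates gave 182, 188 and 296 CPM. Chow replicate 2 lay among the HFHS libraries, so the groups overlapped. The log2 fold change was -0.53 ± 0.31 (adjusted p = 0.287, edgeR with Benjamini-Hochberg adjustment).

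Reads of similar Cyp3a genes can be split between rows by the counting, so the rows were also summed. Of the 50-base windows of Cyp3a25 transcripts, 25.2% also occur in Cyp3a59, while 6.73% of those of Cyp3a11 occur in any other gene and none of those of Cyp3a13 do. The sum of all Cyp3a rows was 6939, 7628 and 6969 CPM in chow and 2403, 2402 and 2220 CPM in the HFHS group. The means were 7179 ± 389 and 2342 ± 105 CPM (exact two-sided permutation test, p = 0.1, the smallest that 3 against 3 allows). Within this sum the share of Cyp3a11 was 75.2%, 78.9% and 75.4% in chow and 70.4%, 70.2% and 55.9% in the HFHS replicates 1, 2 and 3. The share of Cyp3a25 was 17.1% to 17.9% in chow and 20.3% to 28.9% in the HFHS group.

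Ratios between family members within a library describe the same shift in make-up, with HFHS replicate 3 furthest from chow. The ratio of Cyp3a11 to Cyp3a25 counts was 4.40, 4.62 and 4.21 in chow and 3.35, 3.47 and 1.94 in the HFHS group. The ratio of Cyp3a11 to Cyp3a13 counts ranged from 12.8 to 31.1 in chow and from 4.20 to 9.29 in the HFHS group. Neither pair of ranges overlapped, and each ratio gave p = 0.1 in an exact two-sided permutation test of its log2 values (0.12 adjusted over 6 ratios computed), with 0.1 the smallest p possible. Shares and ratios of counts depend on transcript length as well as on level, but length does not alter a comparison of one ratio between groups.

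**Figure D2:**
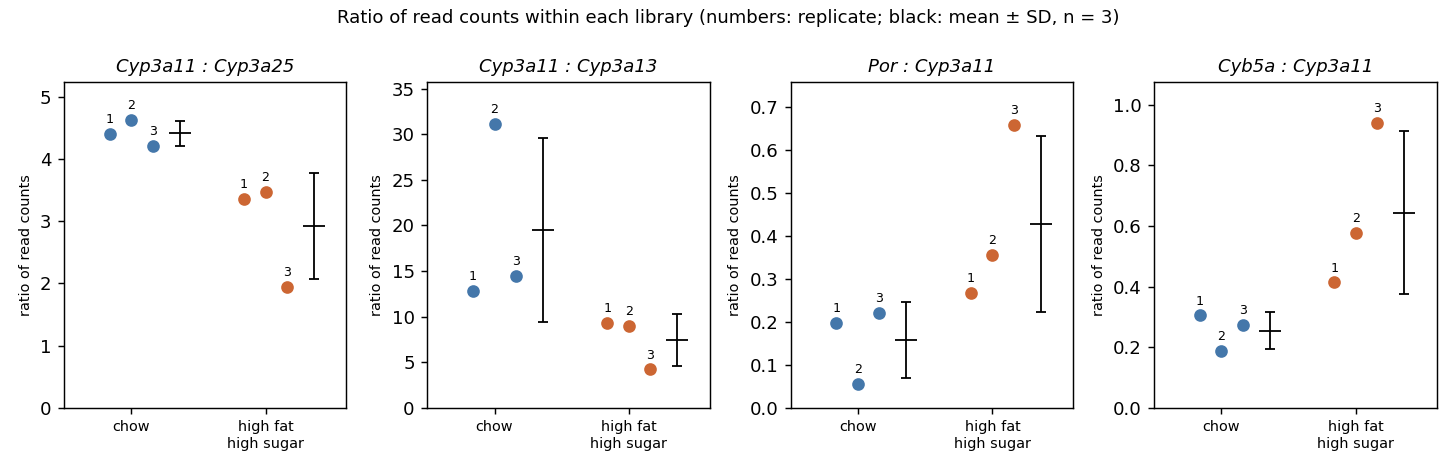
Ratio of read counts of pairs of genes within each library, on linear axes that start at 0; points are libraries numbered by replicate, and the black line and bars are the mean ± SD of 3. Ratios to Cyp3a25 and Cyp3a13 are lower, and ratios of Por and Cyb5a to Cyp3a11 higher, in every HFHS library than in any chow library.

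The other Cyp3a rows were far lower than Cyp3a11, and of 6 only Cyp3a59 passed the filter on low counts. Cyp3a59 stood at 128, 108 and 103 CPM in chow and at 22.2, 35.3 and 37.1 CPM in the HFHS replicates. It fell from 113 ± 13.1 to 31.5 ± 8.10 CPM, a log2 fold change of -1.84 ± 0.21 (adjusted p = 0.00775, edgeR with Benjamini-Hochberg adjustment), and its adjusted p was 0.0528 without chow replicate 3. The ratio of Cyp3a25 to Cyp3a59 counts was 9.29 to 12.1 in chow and 13.8 to 22.7 in the HFHS group (exact two-sided permutation p = 0.1, 0.12 adjusted over the 6 ratios). Because the transcripts share sequence, how their reads were divided is uncertain.

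Cyp3a41a, a female-predominant Cyp3a gene of mouse liver, had 0 reads in all 3 chow libraries and 1, 46 and 26 reads in HFHS replicates 1, 2 and 3. Scaled for library size, the summed HFHS reads were 19.6-fold those of chow when chow was set to a floor of 3 counts in sum. The 95% counting interval of the ratio began at 15.6, and nearly all the reads came from replicates 2 and 3. With no filter on low counts its adjusted p was 0.102 by edgeR, and it was 0.0199 without HFHS replicate 1. Its transcripts share 93.7% of their 50-base windows with Cyp3a41b, which had 0 reads in all 6 libraries, so the row cannot be assigned to 1 of the genes. Cyp3a16 had 9, 4 and 3 reads in chow and 3, 37 and 21 in the HFHS replicates, a ratio of 3.07 (95% counting interval 1.75 to 5.71), with an adjusted p of 0.219 by edgeR without the filter and 0.0475 without HFHS replicate 1. Both Cyp3a41a and Cyp3a16 were high in replicates 2 and 3 and at or near the chow level in replicate 1. Cyp3a44 had 10, 4 and 1 against 1, 15 and 13 reads, a ratio of 1.56 (0.809 to 3.13), and Cyp3a57 had 7, 12 and 4 against 6, 13 and 7 reads, a ratio of 0.911 (0.50 to 1.67). The intervals cover counting error only.

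**Figure D3:**
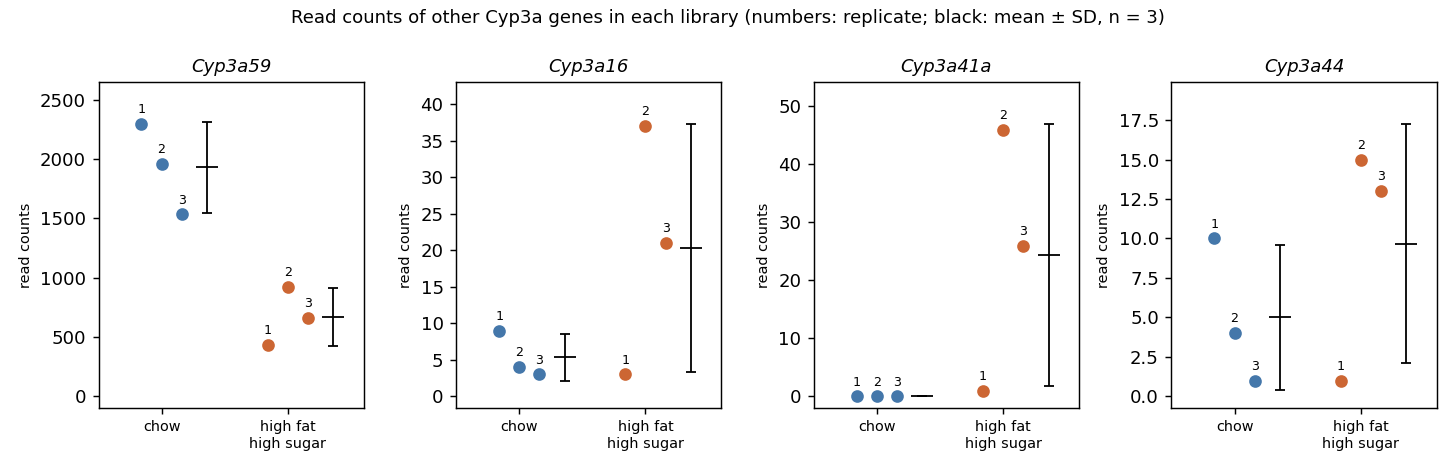
Read counts of Cyp3a59, Cyp3a16, Cyp3a41a and Cyp3a44 in each library, not scaled for depth; points are libraries numbered by replicate, and the black line and bars are the mean ± SD of 3. Cyp3a59 is lower in every HFHS library, while reads of Cyp3a41a are at 0 in chow and at 1, 46 and 26 on the diet.

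Cyp1a2, which oxidises caffeine, aromatic amines and oestrogens, was the abundant Cyp1a enzyme and lies on chromosome 9 (57676937 to 57683655, minus strand). Chow replicates 1, 2 and 3 gave 648, 624 and 713 CPM, and HFHS replicates 1, 2 and 3 gave 239, 537 and 247 CPM. The groups did not overlap, but replicate 2 of the HFHS group lay much nearer to chow than to its own group. The means were 661 ± 46.1 and 341 ± 170 CPM, with a log2 fold change of -0.96 ± 0.33 that missed the threshold (adjusted p = 0.0875, edgeR with Benjamini-Hochberg adjustment). DESeq2 on the same counts gave -0.95 with an adjusted p of 0.0175. Without HFHS replicate 2, edgeR gave -1.44 ± 0.14 and an adjusted p of 0.00258, so that 1 library decides the call.

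Cyp1a1, the most inducible AhR target, has its listed start 13958 bases from that of Cyp1a2 on the plus strand of chromosome 9, inside a RefSeq span of 57687928 to 57703824. It had 8, 19 and 9 reads in chow and 13, 34 and 3 reads in the HFHS replicates, or 0.445, 1.04 and 0.606 against 0.671, 1.31 and 0.167 CPM. All chow values lay within the HFHS range, and a count of 3 in these libraries corresponds to 0.115 to 0.202 CPM, close to the lowest value. The log2 fold change was 0.08 ± 0.66 (adjusted p = 0.947, edgeR with Benjamini-Hochberg adjustment), and its sign turned with limma-voom and when single libraries were left out. Reads within the HFHS group ranged from 3 to 34, a spread within which no difference between the diets could be told. Cyp1a2 had 597 to 1460 times the counts of Cyp1a1 in chow and 356 to 1470 times in the HFHS group (exact two-sided permutation p = 0.4), and the transcripts share under 5% of their 50-base windows.

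Ahr itself (chromosome 12, 35497979 to 35534989, minus strand) stood at 66.4, 59.3 and 92.7 CPM in chow and at 47.5, 58.4 and 41.8 CPM in the HFHS group. The groups were separate by less than 1 CPM, between chow replicate 2 and HFHS replicate 2. The means were 72.8 ± 17.6 and 49.2 ± 8.44 CPM, with a log2 fold change of -0.56 ± 0.20 (adjusted p = 0.0952, edgeR with Benjamini-Hochberg adjustment). An antisense gene, Gm48236, overlaps 127 bases of its exons, and the strand setting of the counting is not given.

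Among 14 other genes of the AhR pathway, 12 were tested, 2 rose and 2 fell, with a median log2 fold change of 0.13. Of all tested genes, 11.0% were called higher and 3.61% lower. Cyp1b1, an AhR target found largely outside hepatocytes, rose from 0.789 ± 0.078 to 4.78 ± 2.28 CPM (log2 fold change 2.60 ± 0.39, adjusted p = 0.0115 by edgeR). Hsp90aa1, a chaperone that holds AhR in the cytoplasm, rose by 0.58 ± 0.15 on the log2 scale (adjusted p = 0.0450 by edgeR), and was named after its values were seen. The glucuronosyltransferases Ugt1a6a and Ugt1a6b fell by 0.63 ± 0.12 and 0.42 ± 0.10 on the log2 scale (adjusted p = 0.0165 and 0.0329 by edgeR), and as exons are shared across the Ugt1a locus their rows may share reads. Scaled by library size alone, neither was called. Hsp90aa1 and Ugt1a6b were not called with the replicate block (adjusted p = 0.058 and 0.0854 by edgeR), nor without chow replicate 1, chow replicate 2, HFHS replicate 1 or HFHS replicate 2, and Hsp90aa1 was not called by limma-voom (adjusted p = 0.0567). Cyp1b1 was called in each of these fits. Without chow replicate 3, edgeR called none of the 4, and at an unadjusted p under 0.05 it left 2 higher and 2 lower. Without chow replicate 2 it called none lower. Stellate cell and fibroblast markers rose in the same libraries as Cyp1b1 (values below), and their part in its rise was not tested. Ahrr and Aldh3a1, both AhR targets, had too few reads to be tested.

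Gsta2, a glutathione transferase, had the profile most like that of Cyp1a2 across the 6 libraries among 10648 genes searched (Pearson r of log2 CPM 0.998). It stood at 73.8, 73.7 and 108 CPM in chow and at 8.78, 53.5 and 7.93 CPM in the HFHS replicates, with a log2 fold change of -1.85 ± 0.77 (adjusted p = 0.161 by edgeR). Like Cyp1a2, it was high in replicate 2 relative to the other HFHS libraries. The same library also had the highest Nqo1, at 48.6 CPM against 8.30 to 18.1 CPM in the other 5, and the highest Gsta1, at 23.6 CPM against 0.619 to 2.22 CPM. Nqo1 and Gsta1 were named after their values were seen.

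Por, the reductase on which microsomal P450s depend, lies on chromosome 5 (135670040 to 135735326, plus strand) and was not called. Chow replicates 1, 2 and 3 gave 1028, 336 and 1162 CPM, and the HFHS replicates gave 454, 601 and 819 CPM. Chow replicate 2 was the lowest of all 6 libraries, and the groups overlapped. The log2 fold change was -0.43 ± 0.46 (adjusted p = 0.555 by edgeR), and it was -0.82 ± 0.29 without chow replicate 2 (adjusted p = 0.137 by edgeR). Alas1, which encodes the rate-limiting enzyme of haem synthesis and was named after its values were seen, was also lowest in chow replicate 2, at 248 CPM against 586 to 1130 CPM elsewhere.

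Cyb5a (chromosome 18, 84851338 to 84879871, plus strand) gave 1589, 1128 and 1432 CPM in chow and 700, 975 and 1167 CPM in the HFHS replicates. Only HFHS replicate 3 reached above the lowest chow library. The means were 1383 ± 234 and 947 ± 234 CPM, with a log2 fold change of -0.55 ± 0.25 (adjusted p = 0.174 by edgeR). Within the same library, Por counts were 0.0557 to 0.221 of those of Cyp3a11 in chow and 0.268 to 0.659 in the HFHS group. Cyb5a counts were 0.187 to 0.305 of those of Cyp3a11 in chow and 0.414 to 0.939 in the HFHS group. Both ratios were higher in all 3 HFHS libraries than in any chow library (exact two-sided permutation p = 0.1 each, 0.12 adjusted over the 6 ratios). Their denominator, Cyp3a11, itself fell from a mean of 5498 to 1541 CPM, so they do not describe P450s in general. Cyp2e1, another P450 and named after its values were seen, had higher means, 10173 CPM in chow and 6460.5 CPM in the HFHS group. Its groups overlapped, and it was not called (log2 fold change -0.65 ± 0.35, adjusted p = 0.241 by edgeR). The ratios of Por and Cyb5a to Cyp2e1 were not tested.

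**Figure D4:**
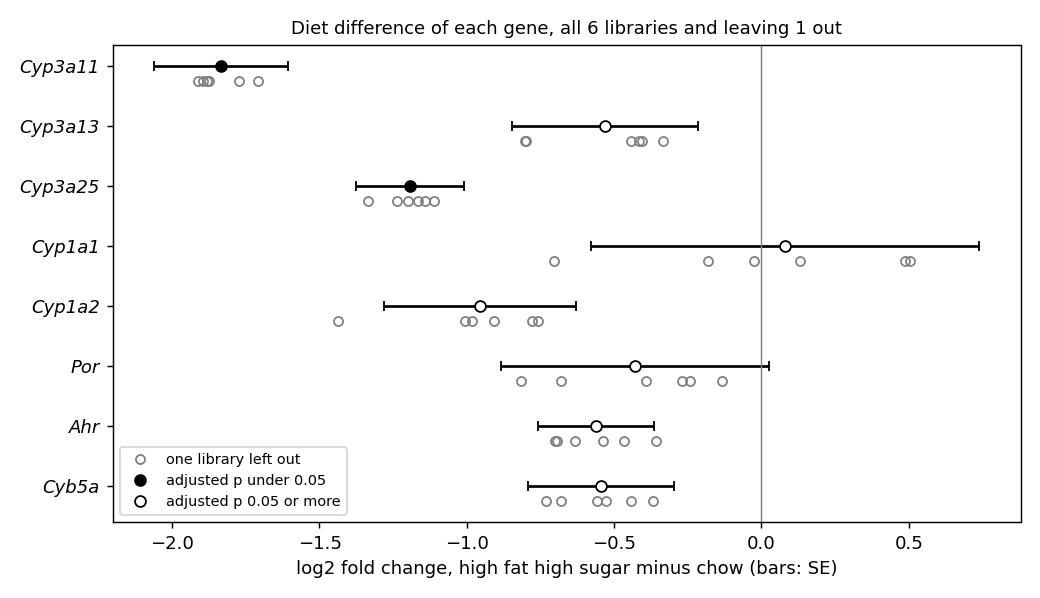
Log2 fold change of each of the 8 genes between the diets (HFHS minus chow) with its SE from edgeR over all 6 libraries, and the value with each library left out in turn (grey). All points of Cyp3a11 lie between -1.91 and -1.71, while those of Cyp1a1 lie on both sides of 0.

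Of 19 other genes of electron transfer and haem metabolism, none was called by edgeR. In either direction, 5 had an unadjusted p under 0.05, and the median log2 fold change was -0.21. At that p, 2524 of all 12949 tested genes were higher and 1660 lower. Of the 19, DESeq2 called 1 higher and 3 lower. Pgrmc1, a haem-binding membrane protein that associates with P450s, went from 1814 ± 70.7 to 1126 ± 166 CPM (log2 fold change -0.69 ± 0.19, adjusted p = 0.0506 by edgeR). Fech, the last enzyme of haem synthesis, had a log2 fold change of -0.50 ± 0.15 (adjusted p = 0.0676 by edgeR). Hmox1, which breaks haem down, had one of 0.78 ± 0.24 (adjusted p = 0.0694 by edgeR). For all 3 genes, named for their small p, the groups did not overlap. Of the 19 genes, 4 were lower and 1 higher without overlap, while 39.5% of all tested genes had no overlap in either direction.

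Of 24 genes for PXR, CAR, their cofactors and their targets, all tested, 4 fell and none rose. At an unadjusted p under 0.05, 11 were lower, and the median log2 fold change was -0.50. Of all 12949 tested genes, 3.61% were called lower, and 1660 were lower at an unadjusted p under 0.05. The called genes of the list were P450s and a transporter. Cyp2b10, the classic CAR target, went from 4.73, 4.56 and 6.66 CPM in chow to 0.568, 0.115 and 0.0558 CPM (log2 fold change -4.43 ± 0.60, adjusted p = 0.0101 by edgeR). The HFHS values rest on 11, 3 and 1 reads, so the size of this fall is uncertain. Cyp2b9 and Cyp2b13, named after their values were seen, overlapped between the groups (adjusted p = 0.407 and 0.902 by edgeR). Cyp2c55 fell by 3.34 ± 0.23 and the organic anion transporter Slco1a4 by 1.71 ± 0.33 on the log2 scale (adjusted p = 0.00517 and 0.0204 by edgeR). Cyp2c29 was the other call (log2 fold change -1.97 ± 0.40, adjusted p = 0.0212 by edgeR), named after its values were seen. Cyp2c29 has close relatives in the Cyp2c family among which its reads may be split.

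The receptors were not called. Nr1i2, which encodes PXR, was at 127, 70.4 and 156 CPM in chow and at 74.2, 89.9 and 110 CPM in the HFHS group, with overlap (log2 fold change -0.36 ± 0.29, adjusted p = 0.430 by edgeR). Nr1i3, which encodes CAR, was at 295, 204 and 366 CPM in chow and at 99.7, 199 and 159 CPM, without overlap (log2 fold change -0.92 ± 0.30, adjusted p = 0.0799 by edgeR). Abcb1a, a drug efflux pump, was the gene of the list with the smallest p among those with a positive log2 fold change (0.50 ± 0.61, adjusted p = 0.613 by edgeR). DESeq2 called 9 genes of the list lower, and leaving out single libraries gave between 1 and 6, with 2 without chow replicate 1 and 1 without chow replicate 3.

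**Figure D5:**
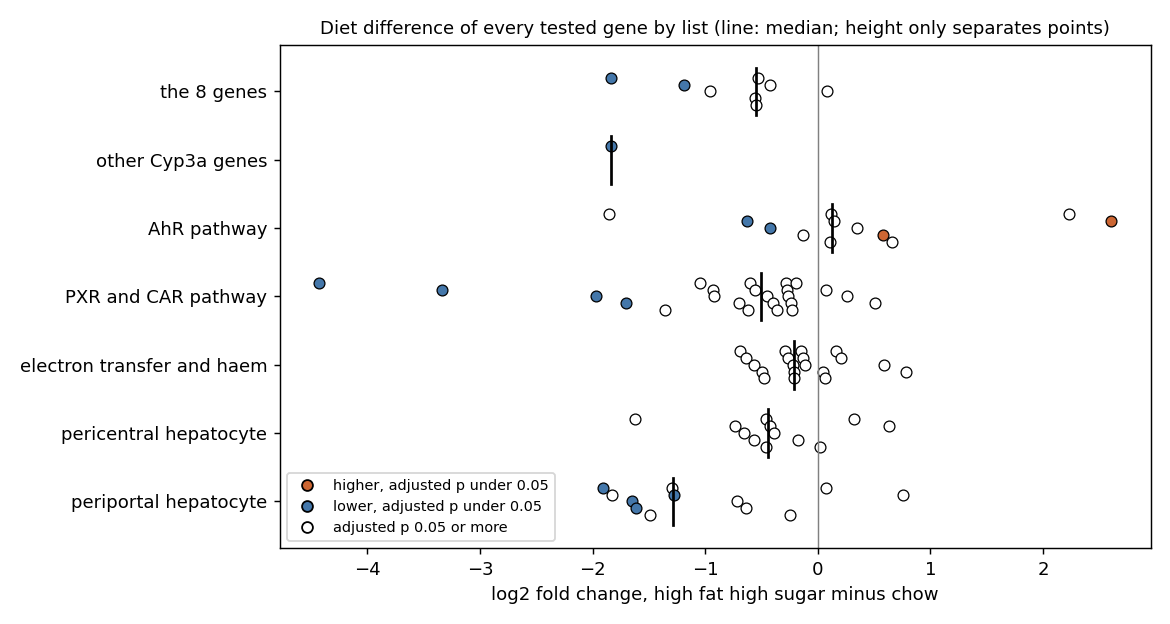
Log2 fold change between the diets (HFHS minus chow) of every tested gene of the 8 genes and of 6 related lists; points are genes, filled where the adjusted p was under 0.05 by edgeR, and vertical lines are medians. Called genes lie on the lower side in every list that has any, except the AhR pathway, which has 2 on each side.

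Cyp1a2 and Cyp3a11 are known from hepatocytes around the central vein, so genes of that zone and of the opposite, periportal zone were read beside them. Of 12 pericentral genes none was called by edgeR, 2 had an unadjusted p under 0.05, DESeq2 called 1, and the median log2 fold change was -0.44. Of all 12949 tested genes, 2524 were higher and 1660 lower at an unadjusted p under 0.05. Glul, glutamine synthetase of the innermost cells, had 1117 ± 308 CPM on chow and 1728 ± 175 CPM on the HFHS diet (log2 fold change 0.63 ± 0.25, adjusted p = 0.126 by edgeR). Oat and Lgr5 had log2 fold changes of -1.62 and -0.39 (adjusted p = 0.128 and 0.209 by edgeR). Against 3.61% of all tested genes called lower, 4 of 12 periportal genes fell and none rose, with a median of -1.29. They were the histidine-degrading enzyme Hal (-1.91), the glutaminase Gls2 (-1.65), the urea cycle enzyme Asl (-1.28) and Pck1 of gluconeogenesis (-1.62), with adjusted p of 0.0109, 0.0293, 0.0297 and 0.0344 by edgeR, the last named after its values were seen. Cdh1 had a log2 fold change of 0.76 (adjusted p = 0.512 by edgeR). When chow replicate 1 or chow replicate 2 was left out, edgeR called 1 periportal gene lower, and when chow replicate 3 was left out it called 0, where 5 had an unadjusted p under 0.05.

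Most tested markers of macrophages, stellate cells and fibroblasts, cholangiocytes and endothelium rose with the diet, and no lymphocyte marker was called. Of all tested genes, 11.0% were called higher. Macrophage markers were called higher in 8 of 8, with a sum of 262 to 367 CPM in chow and 846 to 1618 CPM in the HFHS group. Stellate cell and fibroblast markers were higher in 7 of 8 (155 to 206 against 450 to 950 CPM), cholangiocyte markers in 5 of 6 (23.8 to 43.8 against 171 to 287 CPM), endothelial markers in 4 of 6 (118 to 158 against 200 to 256 CPM) and lymphocyte markers in 0 of 6 tested of 8 (3.57 to 6.23 against 6.92 to 13.4 CPM). No marker was at 0 in all 6 libraries, and Cftr, a cholangiocyte marker, was at 0 in chow replicates 1 and 2. Without chow replicate 3 edgeR called none of these markers, but 8 of 8 macrophage, 7 of 8 stellate cell and fibroblast, 5 of 6 cholangiocyte and 4 of 6 endothelial markers were higher at an unadjusted p under 0.05. The median log2 fold change of the macrophage list was 2.03 without that library and 2.06 with it. Of 9 hepatocyte markers found, 1 was lower (Serpina1c, log2 fold change -1.26, adjusted p = 0.0343 by edgeR), and their sum was 110900, 102800 and 122100 CPM in chow and 99420, 42680 and 75310 CPM in HFHS replicates 1, 2 and 3. Replicate 2 had the lowest hepatocyte sum and the highest macrophage, stellate and cholangiocyte sums.

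Read against the hepatocyte markers of the same library, Cyp3a11 was lower in every HFHS library than in any chow library. It gave 47.0, 58.5 and 43.1 counts per 1000 hepatocyte marker counts in chow and 17.0, 39.5 and 16.5 in HFHS replicates 1, 2 and 3. HFHS replicate 2 came close to the lowest chow library. Cyp3a25 gave 10.7, 12.7 and 10.2 in chow against 5.09, 11.4 and 8.52, so replicate 2 lay within the chow range. Cyp1a2 gave 5.84, 6.06 and 5.84 in chow against 2.40, 12.6 and 3.28, so replicate 2 was the highest of all libraries. Ahr gave 0.598, 0.576 and 0.759 in chow against 0.478, 1.37 and 0.555. On this scale the groups overlapped for Cyp3a25, Cyp1a2 and Ahr.

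The scale rests mainly on albumin, which made up 56.6% to 73.5% of the marker sum and stood at 24140 CPM in HFHS replicate 2 against 69100 to 89660 CPM in chow. With Alb left out of the sum, a choice made after the data were seen, Cyp3a25 gave 35.9, 38.6 and 38.5 per 1000 in chow against 17.8, 26.2 and 25.7, with no overlap. Cyp3a11 then gave 158, 178 and 162 against 59.6, 91.0 and 49.7, also with no overlap, while the groups still overlapped for Cyp1a2 and Ahr. Against each of the 9 markers by itself, Cyp3a11 and Cyp3a25 were each lower in all HFHS libraries for 6 markers. Their groups overlapped for 3 (Alb, Serpina1c and Cps1, the last also in the periportal list), whereas Cyp1a2 and Ahr overlapped for all 9. The part of cell makeup in these levels was not tested.

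Per kilobase of the longest protein-coding transcript (RPKM, that is TMM-scaled CPM divided by length), the order of the 8 genes in chow was Cyp3a11 at 2346 ± 193, Cyb5a at 1660 ± 281, Cyp3a25 at 623 ± 29.7, Cyp1a2 at 341 ± 23.8, Por at 319 ± 168, Cyp3a13 at 109 ± 38.0, Ahr at 13.1 ± 3.18 and Cyp1a1 at 0.259 ± 0.115. The libraries of Cyp1a2 and Por overlapped, as did those of Por and Cyp3a13, and the other neighbours were separate. In the HFHS group Cyb5a came first at 1137 ± 281, ahead of Cyp3a11 at 657 ± 110, with no overlap, followed by Cyp3a25 at 272 ± 42.3, Por at 237 ± 69.5 and Cyp1a2 at 176 ± 87.6, whose libraries overlapped. Cyp3a13 at 75.1 ± 21.6, Ahr at 8.88 ± 1.52 and Cyp1a1 at 0.265 ± 0.212 closed the order. The length chosen matters: over the union of all exons, Cyb5a stood at 305 ± 75.5 and Cyp3a11 at 303 ± 50.7 in the HFHS group, and Cyp3a25 came ahead of Cyb5a in chow (598 against 446).

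The genes whose log2 CPM followed each of the 8 most closely over the 6 libraries are given as a description only. Genes that differ between the diets correlate with each other for that reason alone. The 3 highest r were also picked from 10648 genes over only 6 libraries, so values this high can arise from the search alone. Cyp1a1 rests on 3 to 34 reads per library. Cyp3a11 was most like Tbc1d9b, Usf2 and Insr (Pearson r 0.993 to 0.995), and Cyp3a25 was most like Dxo, Lipc and Zmat1 (0.996 to 0.997). Cyp3a13 was most like Ccdc138, Nicn1 and Hmgn1 (0.987 to 0.994), and Cyp1a2 most like Gsta2, Nek1 and Rnf216 (0.987 to 0.998). Cyp1a1 was nearest to Arid1a, Cep170b and Zfp273 (0.986 to 0.992) and Ahr to Clip1, Ube2o and Pm20d2 (0.973 to 0.994). Por was nearest to Ppp3r1, Acot4 and C9orf72 (0.977 to 0.981) and Cyb5a to Tmem222, Caml and Vapa (0.991 to 0.994). No gene was shared between these 8 sets of 3.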

How the data were processed

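PolyA RNA of 6 liver libraries was sequenced from a dUTP-based stranded kit, per the labels' protocols. Reads were aligned with STAR to mm10, per the submitters' processing notes. For the counting program, annotation and strand setting, the sources used here give no name. As deposited, the values are raw read counts per gene symbol, 1 table per library. The rows for reads outside genes (7.74% to 10.6% of all counts) and for ambiguous reads (0.615% to 0.862%) entered neither library sizes nor tests. Groups and replicate numbers come from the titles, and no batch is given, so handling and diet cannot be told apart. Counts of libraries within a group differed by more than sampling noise (chi-square per gene at least 24.9).

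Of 17877 genes with a read, 12949 passed filterByExpr (minimum count 10). Diet was tested with edgeR 4.0.16 (TMM, robust quasi-likelihood fit, R 4.3.3) over all of them, with Benjamini-Hochberg adjustment and a threshold of 0.05. Single values and ratios had exact permutation tests. The alternatives were other scalings, no filter, DESeq2 1.42.0, limma-voom 3.58.1, the replicate number as a block, and leaving out each library. The scripts were tested on simulated data. Coordinates and promoters are RefSeq's on GRCm38.p6, and transcript lengths are GENCODE's. The 8 genes and all lists were chosen with earlier results of these data known. Named genes were the 8, the other Cyp3a rows, per list the 3 smallest p plus the smallest p among genes going the other way, and the 3 most correlated genes (mean count at least 50, prior count 2). Of 131 list symbols 130 were found, all but Tf.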

Additional observations from a re-analysis of the deposited data

How the results depend on the processing

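Low read counts limit the low Cyp3a rows and Cyp1a1, the spread between libraries also limits Cyp1a1, and 3 libraries per group limit every test. Cyp3a11 and Cyp3a25 remained called lower under all other scalings, without the filter, with DESeq2, with limma-voom and with the replicate block, and were lost only without chow replicate 3. Leaving out single libraries gave log2 fold changes of -1.91 to -1.71 for Cyp3a11, -1.34 to -1.11 for Cyp3a25, -1.44 to -0.76 for Cyp1a2 and -0.70 to 0.50 for Cyp1a1. It gave 4 to 1664 genes higher and 2 to 772 lower in all, both lowest without chow replicate 3, and 0 to 3 of the 8 genes lower. The same fits gave 0 to 2 other Cyp3a genes higher and 0 to 1 lower, 0 to 2 AhR genes higher and 0 to 2 lower, 1 to 6 PXR and CAR genes lower, 0 to 3 electron transfer and haem genes lower, 0 to 1 pericentral genes lower and 0 to 4 periportal genes lower. Without chow replicate 3, where edgeR called 0 of the 8 genes, 2 had an unadjusted p under 0.05. The ratio of the HFHS to the chow median of Cyp1a2 over Cyp1a1 counts was 0.349 with all libraries and 0.312 to 0.801 with 1 left out. DESeq2 called 974 genes lower in all, Cyp1a2 lower (-0.95), 9 PXR and CAR genes lower, 1 electron transfer and haem gene higher and 3 lower, 1 pericentral gene higher and 7 periportal genes lower. Library size alone gave 200 genes lower in all, 0 AhR genes lower and 1 pericentral gene higher, upper-quartile scaling 1 AhR gene lower, and RLE scaling 1 electron transfer and haem gene lower. limma-voom gave 1 AhR gene higher and -0.18 for Cyp1a1. Same-numbered libraries did not deviate together (correlations -0.253, -0.166 and 0.0292), so the numbers were not taken as pairs. Between chow and HFHS libraries of unlike number the correlations ran from -0.0795 to 0.234. With the replicate block 961 genes were higher and 282 lower in all, 1 AhR gene was higher and 1 lower, 1 pericentral gene was lower, and Cyp1a1 stood at -0.072. The cause of these shifts was not tested.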
